A study of Homo sapiens with 4 samples.

Results

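Binding sites of TRIM24 and TRIM28 were examined at the genes of 5 transcription factors of the prostate lineage, FOXA1, HOXB13, GATA2, GRHL2 and MYC. The members were chosen by name, and a site was assigned to a gene when its centre lay in the gene body or within 100 kb of either end. These 5 of 20149 protein-coding genes held 112 of the 107370 sites in the 4 deposited lists, 8 of TRIM24 with ethanol, 11 of TRIM24 with R1881, 60 of TRIM28 with ethanol and 33 of TRIM28 with R1881. A site within 2 kb of any annotated transcription start site (TSS) of the gene was called a promoter site.

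The lists come from chromatin immunoprecipitation sequencing (ChIP-seq) of LNCaP, a line of androgen-responsive prostate cancer cells, and each condition has 1 sample. Cells stably expressing TRIM24 with a hemagglutinin (HA) tag were starved of hormone in 5% charcoal-stripped serum for 3 days, treated for 16 h with ethanol (the vehicle) or 10 nM R1881 (a synthetic androgen), and fixed. TRIM24 was precipitated through its HA tag, so that its sites are those of the expressed, tagged protein, whereas the TRIM28 antibody recognises the protein without a tag. The labels put all 4 samples in wild-type LNCaP, and the sources differ on whether the TRIM28 samples also carried HA-TRIM24. Lists of binding sites hold no expression values, so that the cell type could not be checked against marker genes. With 1 sample per condition no difference between conditions was tested, and the intervals given here are exact 95% intervals for the counting of tags (sequenced fragments) alone.

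TRIM24 and TRIM28 are related chromatin proteins with a tripartite motif and a PHD-bromodomain pair, which in TRIM24 reads histone modifications. TRIM24 binds nuclear receptors, and TRIM28 is best known as the corepressor that zinc finger proteins of the KRAB type bring to DNA. FOXA1 and GATA2 are pioneer factors that open chromatin in prostate epithelium, HOXB13 is a homeobox factor of the prostate and distal gut, GRHL2 maintains epithelial gene expression, and MYC drives growth and biosynthesis.

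The sequences of 5 sites are shown because the results below turn on them, all on the plus strand of hg19 and written 5′ to 3′. The first 2 contrast a TRIM24 site at the FOXA1 promoter with the upstream FOXA1 site of both factors. The next is the strongest site with R1881 at the HOXB13 locus outside the 2 kb window of HOXB13 itself. The last 2 are 2 of the 3 GATA2 sites of TRIM24. Capitals mark a short core of a member's DNA motif (TGTTTA, AACNNGTT or AGATAA on either strand). A site with no capitals holds none of the cores searched.
FOXA1 promoter, TRIM24 with R1881, chr14:38065286-38065442: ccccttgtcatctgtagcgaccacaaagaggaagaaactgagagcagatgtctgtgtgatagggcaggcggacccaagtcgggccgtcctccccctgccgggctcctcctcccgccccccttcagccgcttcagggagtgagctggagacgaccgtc
FOXA1 upstream, TRIM28 with R1881, chr14:38070436-38070592: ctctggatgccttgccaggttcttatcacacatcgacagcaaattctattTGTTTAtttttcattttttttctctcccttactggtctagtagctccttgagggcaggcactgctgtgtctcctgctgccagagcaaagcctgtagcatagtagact
HOXB13 upstream, TRIM28 with R1881, chr17:46896021-46896177: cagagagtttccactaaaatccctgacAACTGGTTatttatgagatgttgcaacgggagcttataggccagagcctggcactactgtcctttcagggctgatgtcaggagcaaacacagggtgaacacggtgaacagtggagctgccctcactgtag
GATA2 downstream, TRIM24 with ethanol, chr3:128154122-128154276: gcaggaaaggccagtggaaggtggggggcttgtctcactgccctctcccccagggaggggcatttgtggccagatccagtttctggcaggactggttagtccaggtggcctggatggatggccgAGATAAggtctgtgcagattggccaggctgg
GATA2 far downstream, TRIM24 with R1881, chr3:128101148-128101304: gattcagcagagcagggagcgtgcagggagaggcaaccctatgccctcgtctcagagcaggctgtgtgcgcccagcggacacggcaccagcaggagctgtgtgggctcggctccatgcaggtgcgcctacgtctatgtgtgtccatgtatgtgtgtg

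Site levels are normalized tag counts, the tags in a site of 155 to 165 bp after the authors had scaled each library to 10000000 tags. The samples held 11606880 to 25145171 tags, and the deepest was TRIM28 with ethanol. These totals are from the list headers and differ, although the study's methods describe bringing samples to an equal read number by random picks. A site needed 9 tags by the caller's own score, or 12 in TRIM28 with ethanol, which corresponds to 7.75 and 6.99 normalized tags for TRIM24 with ethanol and R1881 and to 4.77 and 6.32 for TRIM28. The TRIM28 ethanol list therefore reaches weaker sites than the other 3. A locus with no listed site is one where nothing passed this minimum, and how many tags it held is not known from the lists.

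TRIM28 with ethanol was listed at the promoters of all 5 genes, and TRIM24 at those of FOXA1 and GRHL2 alone. With ethanol, TRIM24 had a promoter site at 1 of 5 genes (GRHL2), where 10.6% of all protein-coding genes had one. With R1881 it had a promoter site at 2 of 5 (FOXA1 and GRHL2), against 18.4% of all genes. TRIM28 had one at 5 of 5 with ethanol, against 56.4%, and at 3 of 5 with R1881 (HOXB13, GATA2 and GRHL2), against 37.4%. With sites of at least 7.75 normalized tags in every list, the TRIM28 counts were 2 and 2 of 5, HOXB13 and GRHL2 with either ligand.

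Gene bodies held 1 of the 8 TRIM24 sites with ethanol and 3 of the 11 with R1881. Of the TRIM28 sites they held 13 of 60 with ethanol and 9 of 33 with R1881. TRIM24 was in the body of 1 of 5 genes with ethanol (10.7% of all genes) and 2 of 5 with R1881 (20.1%), and TRIM28 in 3 of 5 with ethanol (59.3%) and 2 of 5 with R1881 (44.0%). The GRHL2 body, at 177 kb by far the longest of the 5, held 11 of the 13 TRIM28 sites in gene bodies with ethanol and 8 of the 9 with R1881. Counting the flanks, all 5 genes had a site in every list, where the shares of all genes were 45.2% and 63.9% for TRIM24 and 96.0% and 91.6% for TRIM28 with ethanol and R1881.

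**Figure D1:**
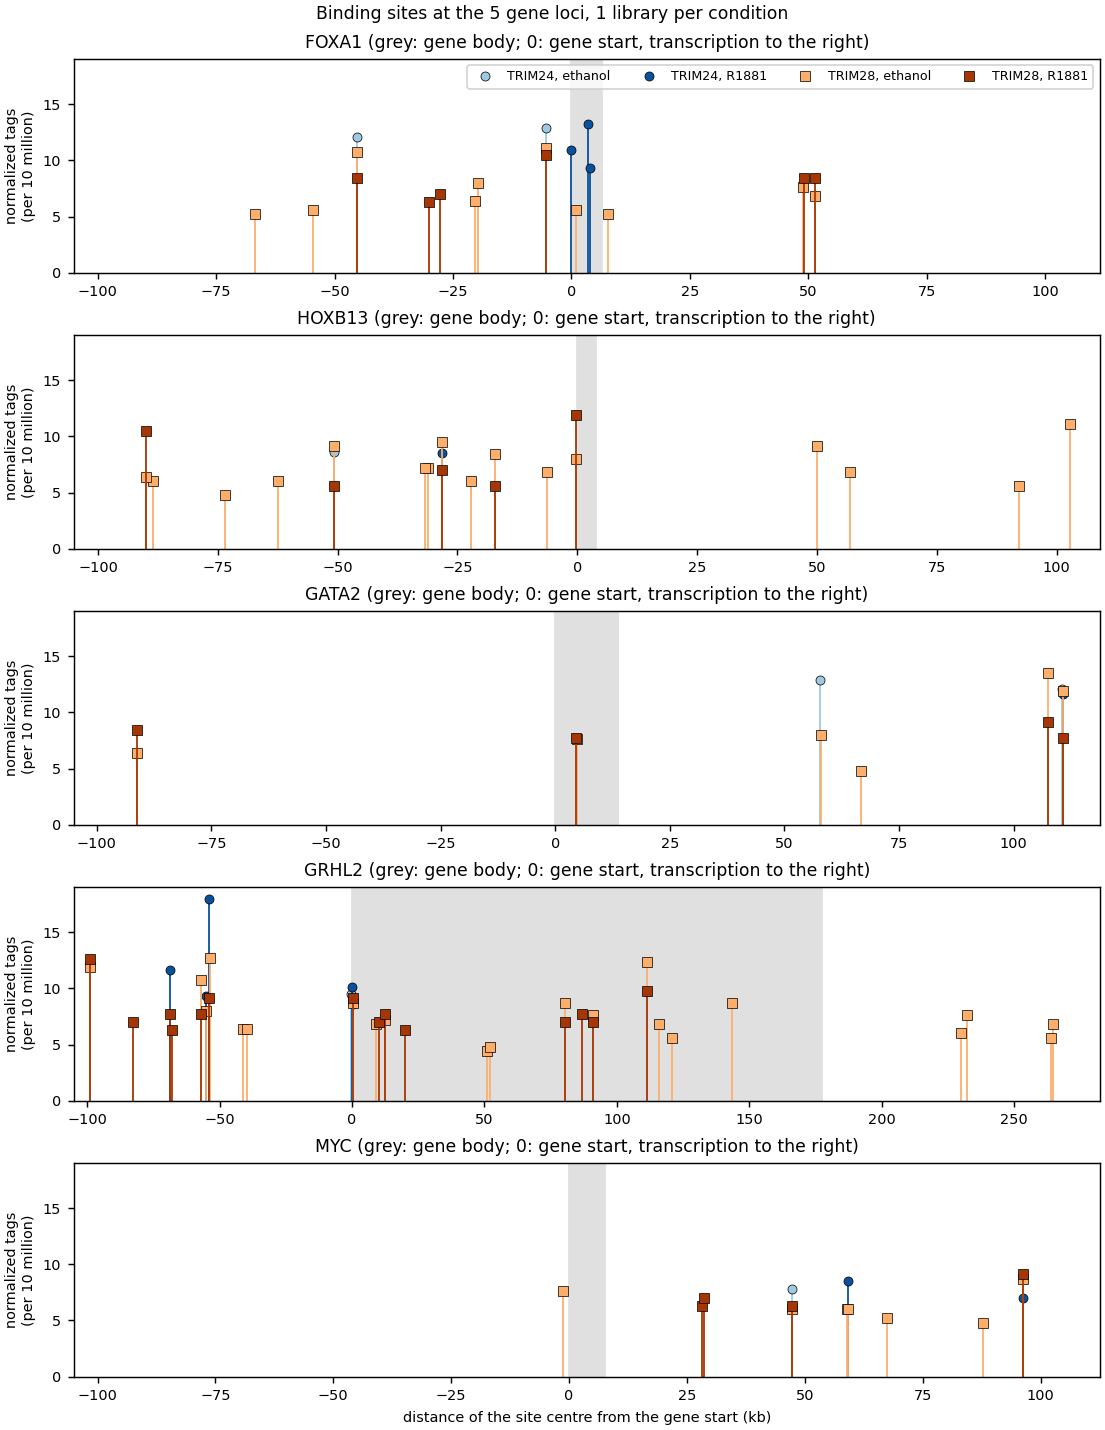
Normalized tags of every listed site (vertical axis, tags per 10000000) against the distance of its centre from the gene start (horizontal axis, kb), with 1 panel per gene and 1 colour per sample. The tallest point is the TRIM24 site with R1881 53.9 kb upstream of GRHL2, at 17.9, and the TRIM24 sites of MYC all lie downstream of the gene.

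The sites within 200 bp of each other were joined into 71 regions, 14 at FOXA1, 16 at HOXB13, 6 at GATA2, 27 at GRHL2 and 8 at MYC. Of these, 44 were in 1 list alone, 18 in 2 lists, 7 in 3 and 2 in all 4. TRIM24 was listed in 15 regions, and 13 of them also held a TRIM28 site under at least 1 ligand. The other 2 were both at FOXA1. TRIM28 was listed in 69 regions, 56 of them without TRIM24. Regions were not built over the whole lists, so that these counts have no share to stand beside. By overlap under the same ligand, 5 of 8 TRIM24 sites with ethanol and 5 of 11 with R1881 were shared with TRIM28. The shares of the whole TRIM24 lists were near these, at 63.8% and 50.1%.

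**Figure D2:**
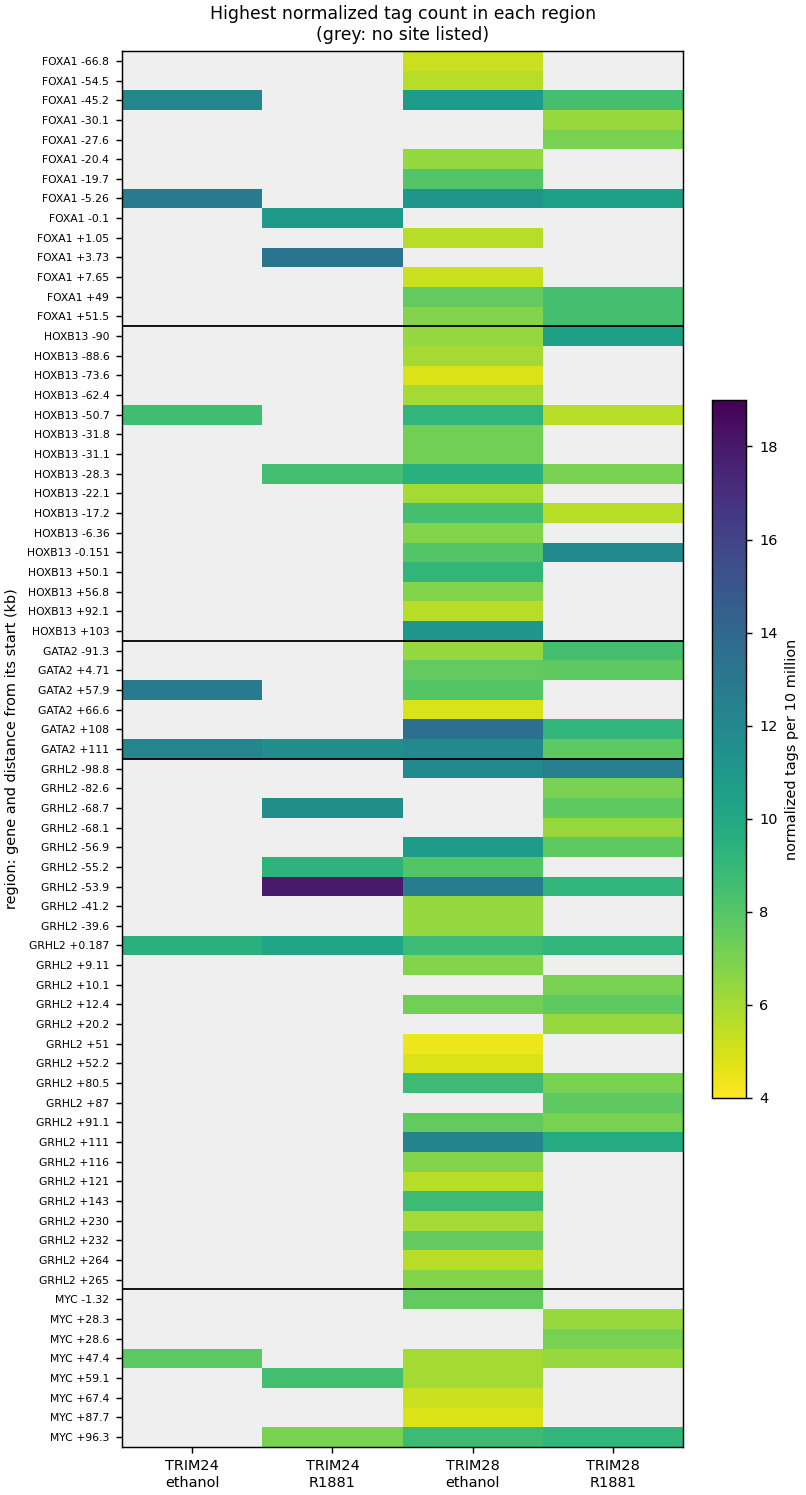
The highest normalized tag count of each of the 71 regions (rows, named by gene and distance from its start in kb) in each sample (columns), where the colour gives tags per 10000000 and grey means that no site was listed. Only 2 rows are filled in all 4 columns, 111 kb downstream of the GATA2 start and at the GRHL2 promoter.

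FOXA1 (chr14:38058757-38065264 of hg19, minus strand, 5 annotated TSSs) had 2 TRIM24 sites with ethanol and 3 with R1881, and none of these were at the same place. Over the whole TRIM24 lists, 47.6% of ethanol sites and 26.6% of R1881 sites overlapped a site of the other ligand, so that most did not. With ethanol, TRIM24 bound upstream, in introns of the neighbouring gene TTC6. The site 5.29 kb upstream held 12.9 normalized tags (7.23 to 21.3), and the site 45.2 kb upstream held 12.1 (6.59 to 20.2). TRIM28 was listed at both places with both ligands, at 11.1 with ethanol and 10.5 with R1881 in the nearer region and at 10.7 and 8.4 in the farther one. TRIM24 with R1881 was listed at neither.

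With R1881, the listed TRIM24 sites of FOXA1 lay at and inside the gene. A promoter site centred 0.1 kb upstream of the gene start, in a TTC6 intron that reaches the FOXA1 start, held 10.9 normalized tags (5.94 to 18.2). A pair of sites in a FOXA1 coding exon, 3.57 and 3.88 kb into the gene, held 13.2 (7.69 to 21.1) and 9.3 (4.81 to 16.3). The site of 13.2 lay 1777 bp from an internal TSS and so also counted as a promoter site. TRIM28 was listed at none of these 3 sites with either ligand, although with ethanol it had a weak site of 5.6 (3.04 to 9.34) 1.05 kb into the gene. The 3 TRIM24 sites were 4.52-, 5.79- and 4.11-fold denser in tags than their local 10 kb, near the caller's minimum of 4, whereas the 2 ethanol sites were 11.62- and 9.36-fold denser. At the site 3.57 kb into the gene the caller's score, which counts at most 1 tag per base, was 11 of 17 tags.

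HOXB13 (chr17:46802125-46806112, minus strand, 1 TSS), in the HOXB cluster, was the locus where TRIM28 sites with ethanol were most numerous for its length. TRIM28 had 16 sites with ethanol and 5 with R1881, and all 5 of the latter overlapped an ethanol site. The promoter site, centred 0.152 kb upstream of the TSS, held 8.0 normalized tags (4.86 to 12.3) with ethanol and 11.9 (6.96 to 19.1) with R1881. The site 90.0 kb upstream, its R1881 centre 1508 bp from a TSS of TTLL6, held 6.4 with ethanol and 10.5 (5.9 to 17.4) with R1881. These were the 2 highest TRIM28 sites of the locus with R1881, whereas with ethanol the highest, at 11.1 (7.4 to 16.1), lay 103 kb downstream in a coding exon of HOXB9 and was not listed with R1881.

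TRIM24 had 1 site at HOXB13 with each ligand, in different places. The ethanol site, 50.8 kb upstream in an intron of TTLL6, held 8.6 normalized tags (4.13 to 15.8). The R1881 site, 28.3 kb upstream between genes, held 8.5 (4.26 to 15.3). TRIM28 was listed in both regions with both ligands, at 9.1 and 5.6 in the first and 9.5 and 7.0 in the second. In the first region the TRIM24 and TRIM28 sites with ethanol did not overlap.

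GATA2 (chr3:128198270-128212044, minus strand, 10 TSSs) had the fewest regions. One of them, 111 kb downstream of the gene start in an intron of EEFSEC, was in all 4 lists, with 12.1 normalized tags (6.59 to 20.2) for TRIM24 with ethanol, 11.6 (6.52 to 19.2) for TRIM24 with R1881, 11.9 (8.05 to 17.0) for TRIM28 with ethanol and 7.7 (3.86 to 13.8) for TRIM28 with R1881. The 4 intervals overlap. The TRIM24 site with ethanol overlapped no site of the other lists and belonged to this region only because sites within 200 bp were joined. A TRIM28 pair 108 kb downstream held 13.5 (9.36 to 18.9) with ethanol, the highest TRIM28 value at the 5 loci, and 9.1 with R1881.

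The other TRIM24 site of GATA2 was listed with ethanol alone, 57.8 kb downstream, at 12.9 normalized tags (7.23 to 21.3), and TRIM28 had a site of 8.0 in the same region, also with ethanol alone. This TRIM24 site had 15 tags but a caller's score of 9, the lowest score that passed. Counting only sites inside GATA2 or nearest to its TSSs left 0 TRIM24 sites with either ligand and 1 TRIM28 site with each. At the GATA2 promoter TRIM28 held 7.6 with ethanol and 7.7 with R1881, 4.8 and 4.61 kb into the gene and near internal TSSs. The sites of the 2 ligands did not overlap.

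GRHL2 (chr8:102504667-102681954, plus strand, 5 TSSs) was the gene with a promoter site in every list. TRIM24 had a pair of promoter sites with ethanol, at 9.5 (4.73 to 17.0) and 8.6 (4.13 to 15.8) normalized tags, and 1 with R1881, at 10.1 (5.37 to 17.3). TRIM28 held 8.7 (5.48 to 13.2) there with ethanol and 9.1 (4.86 to 15.6) with R1881, all within 0.273 kb of the gene start. The TRIM24 and TRIM28 promoter sites with R1881 did not overlap each other. TRIM28 with ethanol had a further promoter site of 8.7 at an internal TSS 143 kb into the gene.

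Upstream of GRHL2, in introns of a noncoding gene, TRIM24 with R1881 had 3 sites that were not listed with ethanol. The site 53.9 kb upstream held 17.9 normalized tags (11.3 to 26.8), the highest of the 112 sites, and TRIM28 held 12.7 (8.7 to 18.0) with ethanol and 9.1 with R1881 in that region. The sites 68.7 and 55.1 kb upstream held 11.6 (6.52 to 19.2) and 9.3 (4.81 to 16.3). TRIM28 was in the first of these with R1881 alone, at 7.7, and in the second with ethanol alone, at 8.0. The strongest TRIM28 site of the locus with R1881, 98.8 kb upstream, held 12.6 normalized tags and had 11.9 with ethanol.

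MYC (chr8:128747680-128755197, plus strand, 14 TSSs) had a promoter site in 1 list. This TRIM28 site with ethanol, 1.32 kb upstream in an intron of the noncoding gene CASC11, held 7.6 normalized tags (4.55 to 11.8). All other MYC sites lay downstream, toward and inside the noncoding gene PVT1, and no site lay in the MYC body. TRIM24 had 1 site with ethanol, 47.4 kb downstream at 7.8 (3.55 to 14.7), and 2 with R1881, 59.1 kb downstream at 8.5 (4.26 to 15.3) and 96.3 kb downstream at 7.0 (3.19 to 13.3). TRIM28 was listed in all 3 of these regions, with ethanol alone 59.1 kb downstream and with both ligands in the other 2. Its highest values at the locus were in the region 96.3 kb downstream, at 8.7 with ethanol and 9.1 with R1881.

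To compare loci of different length, sites were counted per 100 kb of gene and flanks. The members' median was 0.53 for TRIM24 with ethanol and 0.964 with R1881, where the medians of all protein-coding genes were 0 and 0.43. For TRIM28 it was 4.84 with ethanol and 2.45 with R1881, where those of all genes were 2.99 and 1.71. HOXB13 was the densest with TRIM28 and ethanol, at 7.84 sites per 100 kb, and 2.51% of all genes were at least as dense. With R1881 HOXB13 had 2.45, and 28.6% of all genes were at least as dense. FOXA1 had 0.968 and 1.45 TRIM24 sites per 100 kb with ethanol and R1881, and 8.94% and 10.4% of all genes were at least as dense. The density of GATA2 with TRIM28 and ethanol, at 2.81, was below the median of all genes.

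**Figure D3:**
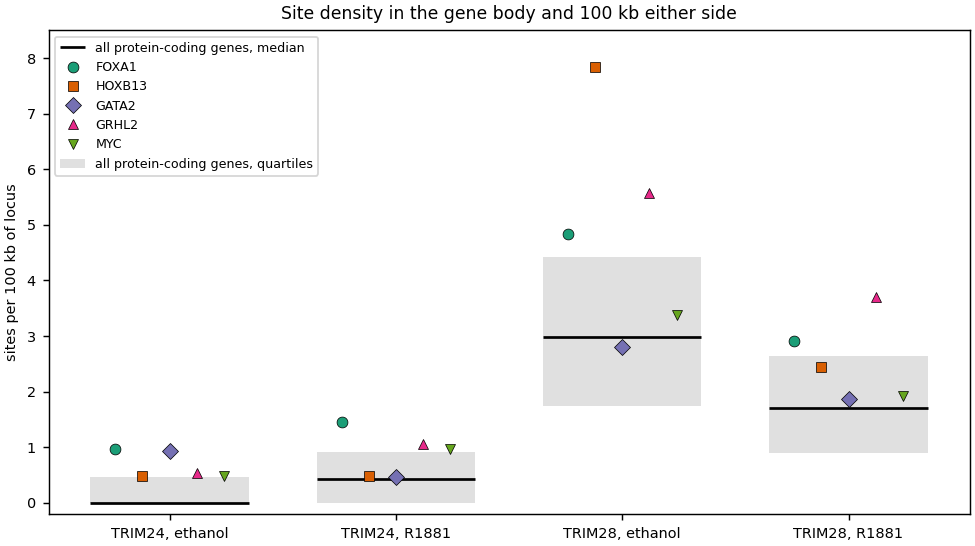
Sites per 100 kb of gene body and flanks (vertical axis) for the 5 genes (points) in each sample, over the quartiles (grey box) and median (line) of all 20149 protein-coding genes. HOXB13 stands highest with TRIM28 and ethanol, at 7.84, and falls within the grey box with R1881, at 2.45.

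Between ligands, the TRIM28 lists differed in length in the whole genome as at the loci. The ethanol list held 1.68 times as many sites as the R1881 list, and the ratio was 1.82 over the 5 loci, from 1.5 at GATA2 and GRHL2 to 3.2 at HOXB13. For TRIM24 the ratio of ethanol to R1881 was 0.559 in the whole lists and 0.727 over the loci. Of the 39 TRIM28 sites at the loci without an overlapping R1881 site, 19 lay below 6.32 normalized tags, the R1881 minimum, and 20 at or above it. This minimum is approximate, since 2 of the 33 R1881 sites at the loci held fewer than 9 tags in the normalized count. At HOXB13, 5 of 11 lay below it. With sites of at least 7.75 normalized tags in every list, 21 TRIM28 sites remained with ethanol and 13 with R1881. The depth of the TRIM28 ethanol sample and its ligand cannot be told apart as the source of the weaker sites.

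For TRIM24, few sites overlapped between ligands. At the loci 1 of 8 TRIM24 ethanol sites overlapped an R1881 site by at least 1 bp, where 47.6% did in the whole list, and 1 of 11 R1881 sites overlapped an ethanol site, against 26.6%. The shared place was the GRHL2 promoter. For TRIM28, 21 of 60 ethanol sites overlapped an R1881 site, against 37.2%, and 21 of 33 R1881 sites overlapped an ethanol site, against 62.6%. With centres within 500 bp counted as shared, the first TRIM24 count was 3 of 8.

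Between factors, 5 of 8 TRIM24 sites at the loci overlapped a TRIM28 site with ethanol, against 63.8% of the whole TRIM24 list, and 5 of 11 did with R1881, against 50.1%. Seen from TRIM28, 5 of 60 sites overlapped TRIM24 with ethanol, against 5.74%, and 5 of 33 with R1881, against 13.6%. At FOXA1, 2 of 2 TRIM24 sites were shared with ethanol and 0 of 3 with R1881. At the other 4 genes, 3 of the 6 TRIM24 sites with ethanol and 5 of the 8 with R1881 were shared.

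Where a site was listed with both ligands, its level could be compared. The GRHL2 promoter was the only such TRIM24 site, with 8.6 normalized tags with ethanol and 10.1 with R1881, a log2 ratio of 0.23 (-1.08 to 1.58). The 21 TRIM28 sites had a median log2 ratio of R1881 to ethanol of -0.08, where that of all 21637 such sites was 0.08. The ratios ran from -0.70, 50.7 kb upstream of HOXB13, to 0.71, 90.0 kb upstream of the same gene, with 10 sites higher and 11 lower with R1881. The HOXB13 promoter had a ratio of 0.57 (-0.44 to 1.59). The interval included 0 at all 21 sites, so that no change in level was detectable at these sites at this depth. The 39 TRIM28 sites with ethanol and 12 with R1881 that overlapped no site of the other ligand have no ratio. Sites with a large change could be among them, and the ratios cannot show it.

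**Figure D4:**
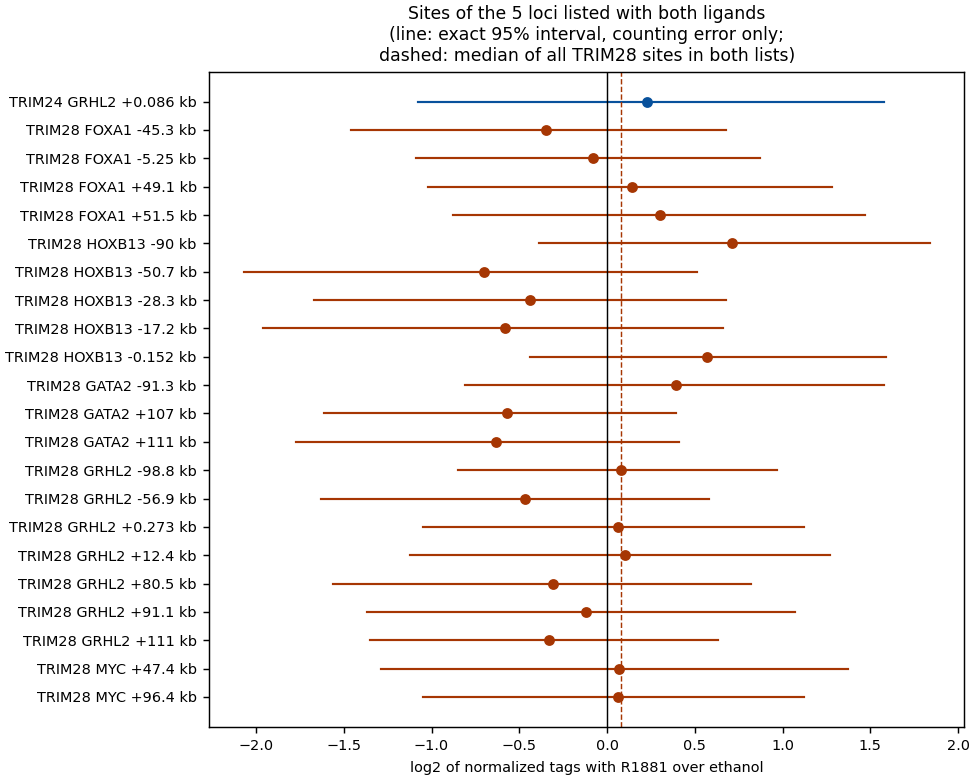
Log2 ratio of normalized tags with R1881 to those with ethanol (horizontal axis) at each site listed with both ligands (rows), with the exact 95% interval from tag counts as a line and the median of all TRIM28 sites in both lists as a dashed line. Every line crosses 0, and the HOXB13 sites span the range from -0.70 to 0.71.

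The 200 bp around each site centre were searched on both strands for short cores of the motifs of the members, none of which contains another. The shares in brackets are over all listed sites on the autosomes and chromosome X, which number 4954 and 9006 for TRIM24 with ethanol and R1881 and 57690 and 34152 for TRIM28. The forkhead core TGTTTA, bound by FOXA1, was in 3 of 8 TRIM24 sites with ethanol (16.5%), 1 of 11 with R1881 (20.4%), 11 of 60 TRIM28 sites with ethanol (18.7%) and 6 of 33 with R1881 (20.9%). The FOXA1 locus, with 10 TRIM28 sites with ethanol and 6 with R1881, held 5 of those 11 and 4 of those 6. It also held 2 of the 3 TRIM24 sites with ethanol. These counts repeat places, since the regions 5.26 and 45.2 kb upstream held the core in each of these lists. Of the places with the core at this locus, only that 5.26 kb upstream lay nearest to a FOXA1 TSS. The others lay nearest to a TSS of TTC6 or MIPOL1. Counting only sites inside FOXA1 or nearest to its TSSs left 3 TRIM28 sites with ethanol and 1 with R1881. For TRIM24 it left 1 with ethanol and 3 with R1881. The TRIM24 sites of FOXA1 with R1881 held the core in 0 of 3. In the second FOXA1 sequence above, the core lies in the site 5.25 kb upstream that both factors shared with ethanol.

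The GATA core AGATAA was in 3 of 8 TRIM24 sites with ethanol (8.42%), 1 of 11 with R1881 (8.53%), 5 of 60 TRIM28 sites with ethanol (10.7%) and 5 of 33 with R1881 (11.1%). At GATA2 it was in both TRIM24 ethanol sites and in 0 of the other sites, so that most of the matches lay at the other 4 genes. It is in capitals in the sequence of the site 57.8 kb downstream. The grainyhead core AACNNGTT was in 0 of the TRIM24 sites at the loci, in 3 of 60 TRIM28 sites with ethanol (4.88%) and in 4 of 33 with R1881 (5.51%), of which GRHL2 held 2 and HOXB13 held 2. The HOX13 core CAATAAA was in 4 of 60 (6.54%) and 2 of 33 (6.58%) TRIM28 sites and in 1 of 8 TRIM24 sites with ethanol (5.31%), none of them at HOXB13. The E-box CACGTG, the site of MYC, was in 2 of 60 (3.15%) and 1 of 33 (2.83%) TRIM28 sites, none at MYC, and in 0 TRIM24 sites.

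The promoter patterns of other genes were compared through the log2 of summed promoter tags plus 1 over the 4 samples. The pattern of FOXA1, 24.1 with TRIM24 and R1881 and 5.6 with TRIM28 and ethanol, was nearest to those of ZNF518B (Euclidean distance 0.225) and CST3 (0.408). HOXB13 was nearest to 3 genes tied at 0.063, of which ARSD and ASNS come first by symbol, and GRHL2 to DPY19L4 (0.262) and SCLY (0.306). For GATA2 16 genes and for MYC 116 genes had the identical pattern.

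Among 30 other transcription factor genes of prostate epithelium and relatives of the members, 2 had a TRIM24 promoter site with ethanol (6.67%) and 5 with R1881 (16.7%), and 18 had a TRIM28 promoter site with ethanol (60.0%) and 12 with R1881 (40.0%). The shares of all protein-coding genes were 10.6%, 18.4%, 56.4% and 37.4%. Those with a TRIM24 promoter site were SPDEF, EHF, MYCL, MAX, MXI1 and MGA. EHF, an epithelial ETS factor, had promoter sites in all 4 lists, with sums of 22.4, 17.8, 20.7 and 18.2 normalized tags in the order TRIM24 ethanol, TRIM24 R1881, TRIM28 ethanol and TRIM28 R1881.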

How the data were processed

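Per the labels, the authors aligned ChIP-seq reads of 4 LNCaP samples to hg19 with BWA 0.6.1 and called sites with HOMER 4.1. The deposited signal is the normalized tag count per 10000000 tags. The deposited score counts at most 1 tag per base and is not scaled. The deposited fold (a ratio to the surrounding 10 kb, at least 4) has a Poisson p-value of at most 1e-04, and the list a false discovery rate of 0.001. The deposited focus fraction (tags on the expected side of the centre) and clonal ratio were not used. The command names no input sample.

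Genes and TSSs were from GENCODE release 44 lifted to GRCh37, the coordinates of hg19. Sites were assigned by their centre, and intervals were exact (Poisson for a count, Clopper-Pearson for a ratio) with scipy 1.17.1 in Python 3.11.15. Whole tags were recovered from the normalized counts at 100% of sites within rounding. Overlap and motif code was tested on simulated data. The members, lists and short motif cores were chosen with earlier results of these data known. The named sites include the strongest of each list at each gene, with weaker sites beside them. The sequences shown are R1881 sites overlapping no UTR, plus a GATA2 ethanol site chosen after its value was seen. Among sites overlapping no UTR, the R1881 sites are the strongest promoter and distal sites of FOXA1 and the strongest distal sites of HOXB13 and GATA2. A FOXA1 promoter site of 13.2 normalized tags, left out by this rule, was stronger than the one shown, at 10.9. Consensus motifs from the study's motif table, with 0 to 3 mismatches, matched 1 of the 112 sites. Sites were tried with other windows, overlaps and minimum levels. Some planned genes, a motif and a sequence are not reported here. No test between conditions was made.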

Additional observations from a re-analysis of the deposited data

Results flagged for a closer look

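With R1881, TRIM24 had more sites and TRIM28 fewer, and since either contrast rests on 1 sample per condition the difference between the factors was not tested. On the log2 scale, the change in sites from ethanol to R1881 over the 5 loci was 0.46 for TRIM24 but -0.86 for TRIM28. The TRIM24 direction depends on the window, since the counts were 8 with ethanol and 11 with R1881 within 100 kb but 6 and 5 within 50 kb. The change in genes with a promoter site was 1.0 for TRIM24 against -0.74 for TRIM28. Among single loci, the change in sites at FOXA1 was 0.58 (TRIM24) and -0.74 (TRIM28), at GRHL2 1.0 and -0.58, and at MYC 1.0 and -0.81. These changes rest on few sites and depend on the minimum level. At 7.75 normalized tags or more, FOXA1 had 3 TRIM28 sites with ethanol and 4 with R1881. MYC then had 1 site with each ligand for either factor, and TRIM28 had promoter sites at 2 genes with each ligand. GRHL2 kept its directions, with 2 and 4 TRIM24 sites and 8 and 4 TRIM28 sites, as did the totals over the loci. The whole lists changed the same way, from 5232 to 9363 sites for TRIM24 and from 58201 to 34574 for TRIM28, as did the depth, from 11606880 to 12884097 tags and from 25145171 to 14231181. HOXB13 had 1 TRIM24 site with either ligand, and GATA2 had fewer sites with R1881 for both factors.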

How the results depend on the processing

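No paired analysis was possible because each condition has 1 sample, and none could be left out. Of the 82 planned values over all 5 genes, 59 stayed within 1.5 times the main count or within counting error and 23 moved, and of 8 values from settings chosen after seeing the data 6 moved. Of 120 site counts at single genes, 68 stayed and 52 moved. The cause was not tested beyond the setting's own construction. Counting 50 kb either side gave 5 TRIM24 R1881, 33 TRIM28 ethanol and 21 TRIM28 R1881 sites, and 200 kb gave 29, 92 and 58. At 50 kb TRIM24 had 6 sites with ethanol, so that its direction between ligands turned. Sites nearest to a TSS of the member itself numbered 4 for TRIM24 and 35 for TRIM28 with ethanol. At HOXB13, 7 of its 16 TRIM28 sites with ethanol remained. At 7.75 normalized tags or more, TRIM28 had 21 sites with ethanol and 13 with R1881, promoter sites at 2 genes with ethanol, and 8 ethanol sites found with R1881, and 1 TRIM24 R1881 site was shared with TRIM28. The stronger 50% of each list left 4 TRIM24 ethanol and 19 TRIM28 R1881 sites, and 0 genes with a TRIM24 promoter site with ethanol. An overlap of 50% left 0 TRIM24 ethanol sites found with R1881, and centres within 500 bp gave 3, and 8 of 8 shared with TRIM28. Consensus motifs in 100 bp gave 0 sites for GRHL2, and 1 more mismatch gave 19 forkhead, 18 GATA2, 8 GRHL2, 3 c-Myc and 1 CTCF site. The short cores gave 21 forkhead, 14 GATA, 7 grainyhead and 3 E-box sites. All 4 settings left the median log2 ratio at the TRIM28 sites between -0.17 and 0.06. A site of 10 tags has an interval as wide as 4.13 to 15.8 normalized tags, which limits every comparison of levels here.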

Other observations

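TRIM24 with R1881 had a pair of sites in a coding exon of FOXA1, where no other list held any. The pair, at 13.2 and 9.3 normalized tags, had scores, limited to 1 tag per base, of 11 and 10 from 17 and 12 tags. The source of these tags was not tested. At the 5 loci the score was at least 3 below the tag count at 4 of 8 TRIM24 ethanol sites, 1 of 11 TRIM24 R1881 sites, 8 of 60 TRIM28 ethanol sites and 1 of 33 TRIM28 R1881 sites, where the shares of the whole lists were 36.1%, 25.6%, 14.5% and 5.47%.

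Within 100 kb, the downstream side of HOXB13 held sites of TRIM28 with ethanol alone. The 4 sites downstream of HOXB13, at HOXB9 and in the noncoding genes LINC03057 and LINC02086, held 11.1, 5.6, 6.8 and 9.1 normalized tags and none was listed with R1881. In the whole list, 37.2% of TRIM28 ethanol sites overlapped an R1881 site, so that most did not. The site of 5.6 lay below 6.32, the approximate R1881 minimum, and that of 6.8 just above it, whereas the other sites lay farther above. The ethanol sample was deeper, with 25145171 tags against 14231181 with R1881. Whether depth or ligand set this difference was not tested. The related gene HOXB9 had 9 TRIM28 sites with ethanol and 0 with R1881 in its own window, and HOXB7 had 10 and 1. TRIM24 had 1 site with each ligand in either window. These windows overlap that of HOXB13, so that the counts share sites.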
